A study of Mus musculus with 11 samples.

Results

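The genes described here are 48 genes of TGF-beta and BMP signaling in the mouse heart, out of 25006 genes counted in each library. They were chosen by name, with earlier results of these data known, and each was matched to its Ensembl gene ID in the count files. The list holds ligands, latency proteins, receptors, antagonists, Smads and target genes of the pathway. RNA came from the left ventricle of 11 mice, with 1 library a mouse, as stranded mRNA libraries. The groups were naive control mice with the genotype Vegfc fl/fl (libraries M44 and M45, n = 2), naive Vegfc-deficient mice with the genotype Vegfc fl/fl ; LysMCre (M149, M150 and M34, n = 3), control mice after myocardial infarction (MI; M006, M38 and M40, n = 3) and Vegfc-deficient mice after MI (M35, M900 and M913, n = 3). MI was made by permanent ligation of the left anterior descending coronary artery, and infarcted tissue was collected 9 days later, with matched ventricle from naive mice. The 9 days are those of the study's methods, whereas its results text places the sequencing 1 week after MI. By the genotype field both genotypes carry floxed Vegfc alleles, and LysMCre deletes them in myeloid cells (macrophages, monocytes and neutrophils), so Vegfc of endothelial and other cells is left in place. The labels disagree on the control mice: their genotype field gives Vegfc fl/fl, whereas the protocol text gives LysMCre mice, and the study also names C57BL/6 mice as controls. Age and sex are not in the labels used here.

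TGF-beta ligands are secreted in a latent form that latent TGF-beta binding proteins (the Ltbp genes other than Ltbp2) tether to the extracellular matrix. The ligands must be released before they can bind. Ligands of the family assemble type II and type I receptors, which phosphorylate receptor-activated Smads. TGF-beta and activin act mostly through Smad2 and Smad3 and BMP through Smad1 and Smad5, each with the common Smad4, and the inhibitory Smad6 and Smad7 shut the pathway off. In the injured heart TGF-beta is known for driving fibroblasts to become myofibroblasts and to lay down scar collagen.

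Values are CPM (counts relative to the library total), scaled between libraries by edgeR's TMM factors, and they are always given in the library order above: M44 and M45, then M149, M150 and M34, then M006, M38 and M40, then M35, M900 and M913. Library totals ran from 10824989 to 26782728 counts, and 3 counts, taken as the floor for counting error alone, were worth 0.101 to 0.363 CPM. Some libraries went against the labels or moved with the groups. LysMCre is inserted in Lyz2, which reached 4565 CPM in M149, a library labelled as naive Vegfc-deficient, against 72.5 and 245 CPM in M150 and M34 and 2121 and 2282 CPM in the naive control libraries. Among the MI Vegfc-deficient libraries Lyz2 was at 1392 CPM in M35, 203 CPM in M900 and 12.4 CPM in M913, against 4538 to 5380 CPM in MI control. Vegfc itself did not separate the genotypes (21.9 to 45.5 CPM over all libraries). Every naive library had transcripts of 4 Y-linked genes (152 to 195 CPM in sum) and every MI library at most 1.84 CPM of them, with Xist at 0.624 to 11.8 CPM in naive and 188 to 403 CPM in MI libraries. The effect of MI and this difference in sex-linked transcripts cannot be told apart. Of 9 markers of ventricular cardiomyocytes, 8 were lower after MI in both genotypes (summed level 73291 to 103117 CPM in naive and 2619 to 26076 CPM in MI libraries), and of 8 fibroblast markers 6 were higher in control and 7 in Vegfc-deficient hearts (4828 to 6730 and 29965 to 47562 CPM in sum). Of 8 macrophage markers, 5 were higher and 1 was lower in each genotype (1341 to 2029 and 1831 to 4675 CPM in sum). In whole tissue, fewer cells of a type and less RNA per cell cannot be told apart, and the part of these markers in the changes below was not tested.

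The first comparison asked which of the pathway's genes differed between infarcted and naive ventricle. Of the 46 members that passed edgeR's filter on low counts, 32 changed in control hearts, against 50.4% of all genes tested. The call was an adjusted p under 0.05 in edgeR's quasi-likelihood test, with the adjustment of Benjamini and Hochberg made over 14779 genes. Of these members 30 were higher and 2 lower after MI, against 26.3% and 24.1% of all genes. In Vegfc-deficient hearts 30 members changed, against 57.6% of all genes, with 29 higher and 1 lower, against 30.0% and 27.7%. Without M149 and M35, a choice made after seeing the data, 31 were higher and 4 lower in control hearts, against 28.4% and 25.0% of the genes then tested. In Vegfc-deficient hearts 26 were then higher and 6 lower, against 30.1% and 27.4%. Among the 46 members, 27 rose and 1 fell in both genotypes, against 21.2% of all genes in each direction. The median log2 fold change of the tested members was 0.87 in control and 0.95 in Vegfc-deficient hearts, beside 0.13 and 0.10 for all genes tested. With library totals alone in place of TMM factors the median of all genes became 0.57 and 0.59 and that of the members 1.32 and 1.45, so the size of a change depends on the scaling. Fold changes and calls are given with TMM factors unless stated otherwise, and were not recentred on the median of all genes. All MI libraries lay above all naive libraries of the same genotype in 35 members and below in 5 in control hearts (39.1% and 33.0% of all genes), and in 31 and 2 in Vegfc-deficient hearts (33.6% and 30.7%). When a log2 fold change of 1 or more in size was required as well, 21 members were higher and 1 lower in each genotype, against 16.0% and 14.8% of all genes in control and 16.6% and 17.0% in Vegfc-deficient hearts. Grem1 and Nog, secreted BMP antagonists, did not pass the filter, so counts over the tested members leave out low genes. Bmpr1b and Fstl3 passed it only through the MI libraries, which favoured a rise in them. Fstl3 is among the members counted as higher in both genotypes. The heat map of the members shows these differences in each library.

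**Figure D1:**
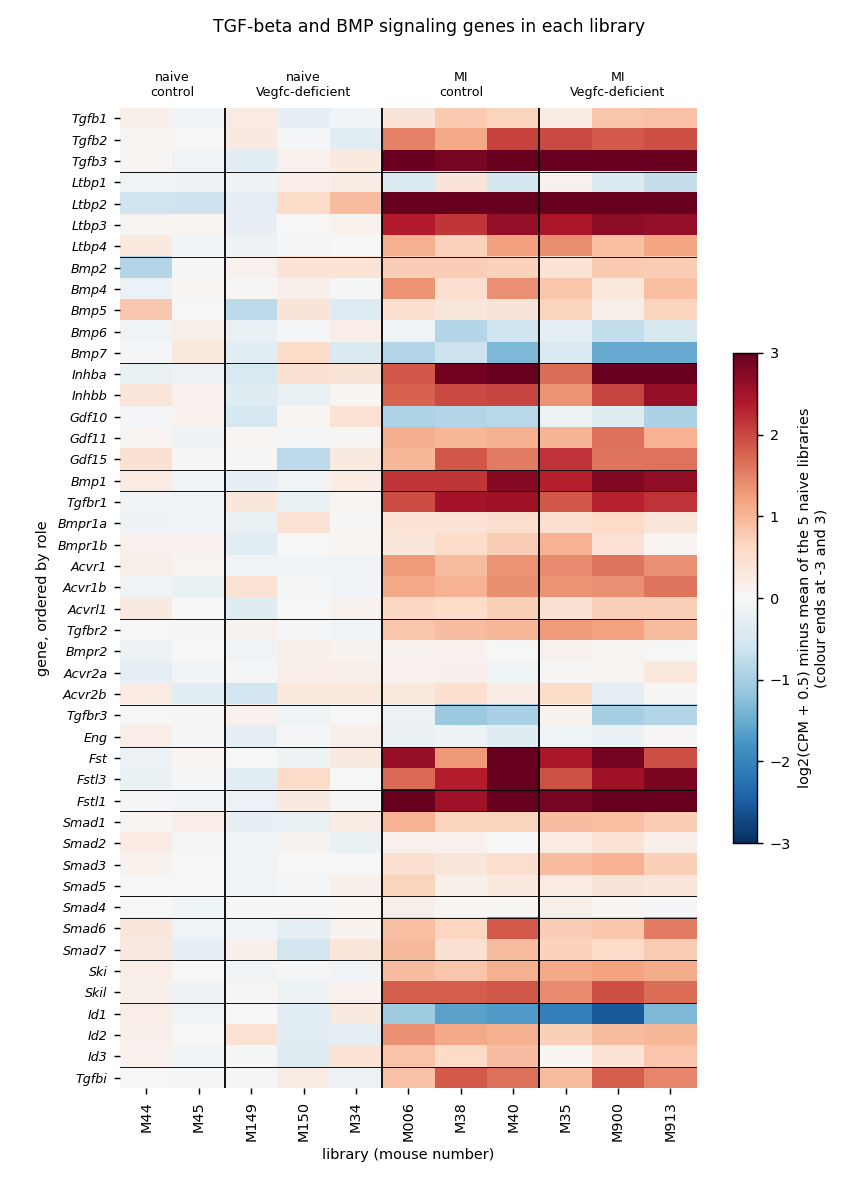
Level of each of the 46 tested members (rows, ordered by role) in each of the 11 libraries (columns, grouped), as log2(CPM + 0.5) minus the mean of the 5 naive libraries; red is higher and blue is lower, and the colour ends at -3 and 3. Tgfb3, Ltbp2 and Fstl1 are among the darkest red rows in all 6 MI libraries, and Id1 is blue in all 6.

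The 3 TGF-beta ligands differed in how far they moved. Tgfb3 (chromosome 12, 86056745 to 86079041, GRCm38) was at 30.6 and 27.3 CPM in naive control, 23.3, 32.8 and 36.4 CPM in naive Vegfc-deficient, 234, 219 and 343 CPM in MI control and 269, 339.7 and 282 CPM in MI Vegfc-deficient libraries. Every MI library lay above every naive library. It rose 9.17-fold in control (log2 fold change 3.20, standard error 0.27, adjusted p = 0.00011) and 9.62-fold in Vegfc-deficient hearts (3.27, standard error 0.23, adjusted p = 2.38e-05). Tgfb2 (chromosome 1, 186622792 to 186705989) was at 13.9 and 13.3, 15.9, 12.7 and 10.5, 38.1, 29.5 and 56.0, and 53.1, 48.6 and 51.4 CPM. Again no naive library reached an MI library, and the spread was widest in MI control. The rise was 3.02-fold in control (log2 fold change 1.60, standard error 0.26, adjusted p = 0.000998) and 3.92-fold in Vegfc-deficient hearts (1.97, standard error 0.23, adjusted p = 0.000103). Tgfb1 (chromosome 7, 25687002 to 25705077), the ligand best known in inflammation and fibrosis, was at 45.8 and 38.7, 48.2, 34.6 and 38.3, 53.5, 70.9 and 65.3, and 47.9, 72.9 and 75.6 CPM. The MI control libraries lay above the naive control libraries, whereas MI Vegfc-deficient M35 lay below naive M149. Its log2 fold change was 0.58 in control (standard error 0.22, adjusted p = 0.051), which did not pass the threshold, and 0.70 in Vegfc-deficient hearts (standard error 0.20, adjusted p = 0.0125), which did. The Vegfc-deficient call was lost without M150 (adjusted p = 0.0515), M913 (0.0686) or M900 (0.0583), and the control call was gained without M006 (0.0428), M149 (0.0431) or M35 (0.0209).

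Per length, the mix of these ligands shifted. Counted as FPKM over the joined exons of each gene, Tgfb3 made up 44.1% and 44.7% of the summed level of the 3 ligands in naive control libraries and 35.9%, 51.7% and 53.3% in naive Vegfc-deficient libraries. After MI its share was 80.1%, 77.1% and 81.8% in control and 81.0%, 81.5% and 77.8% in Vegfc-deficient libraries, so no naive library reached an MI library. The share of Tgfb1 was 36.6% to 49.8% in naive and 9.68% to 16.8% in MI libraries. With the longest transcript as the length, the share of Tgfb3 was 24.0% to 38.8% in naive and 66.0% to 73.6% in MI libraries, and Tgfb1 then held the largest share in every naive library (52.5% to 65.2%). Which isoforms the reads came from is not in the counts.

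**Figure D2:**
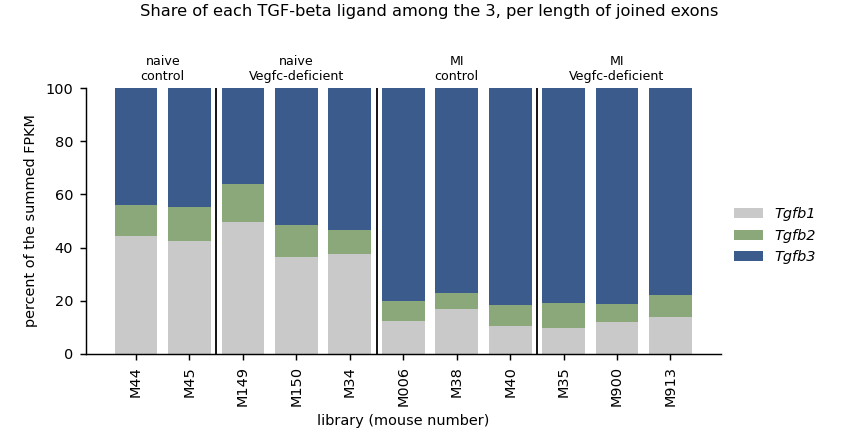
Share of Tgfb1, Tgfb2 and Tgfb3 in their summed FPKM (vertical axis, percent) in each library (horizontal axis), with FPKM taken over the joined exons of each gene. Tgfb3 fills 35.9% to 53.3% of the bar in the 5 naive libraries and 77.1% to 81.8% in the 6 MI libraries.

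The Ltbp genes held the largest change among the tested members, that of Ltbp2. Ltbp2 (chromosome 12, 84783212 to 84876532), an elastic-fibre protein that, unlike its relatives, does not bind latent TGF-beta, was at 9.01 and 8.97, 11.6, 20.7 and 27.1, 406, 472 and 544, and 329.9, 577 and 553 CPM. The lowest MI library, M35, lay far above the highest naive library, M34. It rose 52.7-fold in control (log2 fold change 5.72, standard error 0.44, adjusted p = 9.02e-05) and 24.5-fold in Vegfc-deficient hearts (4.62, standard error 0.35, adjusted p = 2.72e-05). Ltbp3 (chromosome 19, 5740904 to 5758532), which does bind latent TGF-beta, was at 37.8 and 37.4, 30.1, 35.8 and 38.3, 188, 161 and 224, and 198, 233 and 224 CPM. Naive and MI libraries did not overlap, and the log2 fold changes were 2.34 (standard error 0.19, adjusted p = 9.24e-05) and 2.65 (standard error 0.16, adjusted p = 1.2e-05). Ltbp4 rose in both genotypes, by log2 fold changes of 0.90 (standard error 0.22) and 1.25 (standard error 0.19). Ltbp1, at 58.2 to 126 CPM over all libraries, passed the test in neither genotype (adjusted p = 1.0 and 0.24). Exons of Ltbp2 share 764 bases with D030025P21Rik on the other strand, which stayed at or under 1.08 CPM. Whether the authors' counting used strand is not stated in the sources used here.

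Of 5 activin and GDF ligands, 4 rose in both genotypes. Inhba (chromosome 13, 16011851 to 16031621), which codes for the activin A subunit, was at 2.68 and 2.72, 2.16, 4.48 and 4.23, 12.8, 26.6 and 36.3, and 11.2, 37.5 and 28.2 CPM. The MI libraries spread widely, with M006 and M35 lowest, but all lay above all naive libraries. Its log2 fold changes were 3.23 (standard error 0.61, adjusted p = 0.00204) and 2.83 (standard error 0.51, adjusted p = 0.00104). Inhbb (chromosome 1), the activin B subunit, was at 2.41 and 1.99, 1.27, 1.45 and 1.87, 7.27, 8.45 and 8.66, and 5.23, 8.76 and 13.3 CPM. It rose 3.69-fold in control (adjusted p = 0.00293) and 5.89-fold in Vegfc-deficient hearts (adjusted p = 0.00021). Gdf11 (chromosome 10), a close relative of myostatin, was at 4.91 and 4.08, 4.80, 4.48 and 4.72, 10.3, 9.64 and 10.2, and 9.76, 15.5 and 10.02 CPM, a rise of 2.23-fold (adjusted p = 0.00317) and 2.52-fold (adjusted p = 0.000494). For both genes the lowest MI library lay above the highest naive library. Gdf15 (chromosome 8), a cytokine of cell stress, was at 2.14 and 1.45, 1.47, 0.605 and 1.79, 3.34, 6.46 and 5.17, and 8.05, 5.37 and 5.38 CPM. Its log2 fold changes were 1.48 (standard error 0.45, adjusted p = 0.0201) and 2.24 (standard error 0.41, adjusted p = 0.00108), and the control call was lost without M44 (adjusted p = 0.0564), M45 (0.143) or M38 (0.065). Gdf10, a ligand that falls outside the others in direction, was at 8.21 and 9.24 CPM in naive control and 4.31, 4.497 and 4.62 CPM in MI control and fell by 0.96 on the log2 scale (standard error 0.31, adjusted p = 0.0267). In Vegfc-deficient hearts it was at 5.88, 8.96 and 11.9 against 7.70, 6.54 and 4.22 CPM, with groups that overlapped (log2 fold change -0.54, adjusted p = 0.127).

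The BMP ligands were less uniform. Of 5 tested, Bmp2 and Bmp4 rose in control hearts, Bmp4 rose in Vegfc-deficient hearts, and Bmp5, Bmp6 and Bmp7 passed the test in neither. Bmp4 was at 21.3 and 25.0, 24.5, 26.5 and 22.9, 61.6, 33.6 and 62.3, and 43.3, 30.1 and 45.1 CPM. All MI libraries lay above all naive libraries, with log2 fold changes of 1.18 (standard error 0.27, adjusted p = 0.00543) and 0.68 (standard error 0.24, adjusted p = 0.0309). Bmp2 was at 1.43 and 2.90, 3.43, 4.24 and 4.23, 5.49, 5.44 and 5.25, and 4.35, 5.62 and 5.59 CPM. It rose in control hearts (log2 fold change 1.32, standard error 0.32, adjusted p = 0.00639), where M44 was the lowest of all libraries, and did not pass in Vegfc-deficient hearts (0.39, standard error 0.26, adjusted p = 0.229). Bmp6, a ligand of endothelial cells that controls iron, had log2 fold changes of -0.54 (adjusted p = 0.0753) and -0.48 (adjusted p = 0.0737), and 224 of its exon bases overlap Txndc5 on the other strand, which reached 562 CPM. Bmp7 was at 0.977 to 2.42 CPM in naive and 0.207 to 0.999 CPM in MI libraries, with log2 fold changes of -1.61 (adjusted p = 0.0835) and -1.69 (adjusted p = 0.0565). Bmp1, which despite its name is a procollagen C-proteinase that also cleaves chordin and latent TGF-beta binding protein, was at 58.3 and 45.7, 41.1, 45.4 and 56.8, 219.7, 219 and 330.2, and 247, 338 and 314 CPM. It rose 4.93-fold in control (adjusted p = 0.000219) and 6.27-fold in Vegfc-deficient hearts (adjusted p = 3.59e-05), with no overlap of naive and MI libraries.

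**Figure D3:**
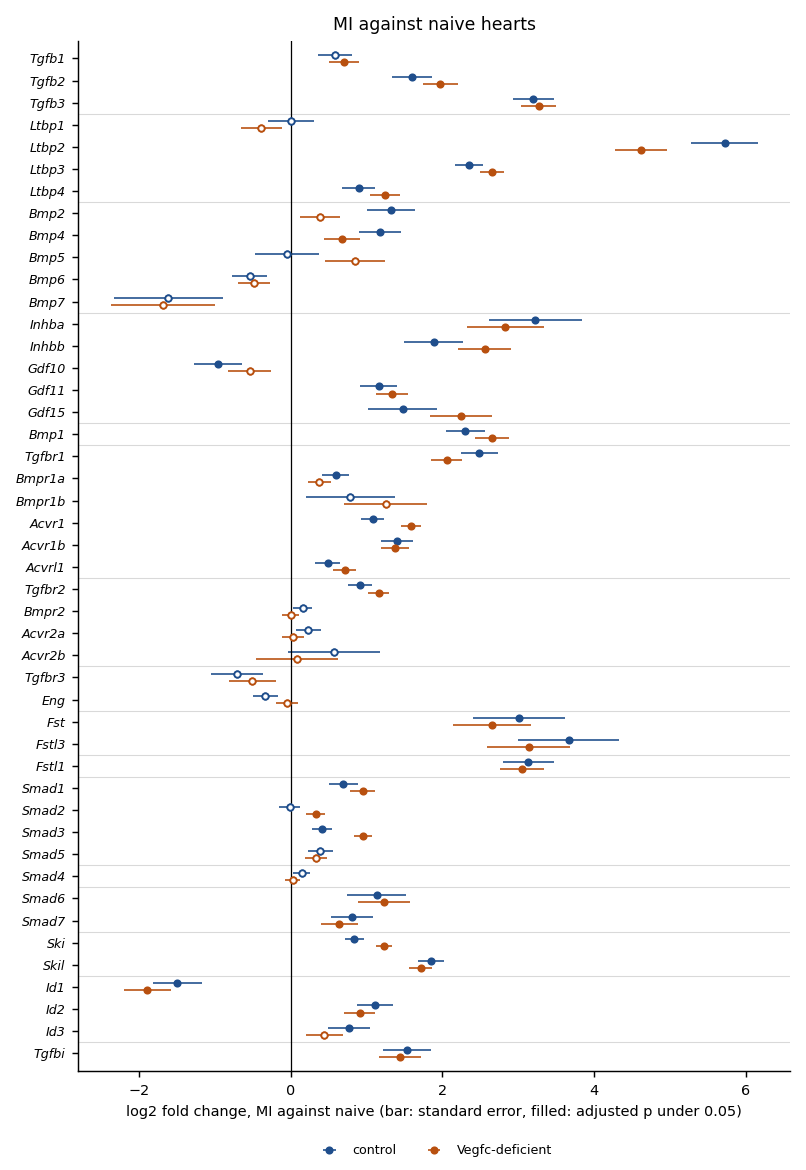
Log2 fold change of MI against naive hearts (horizontal axis) for the 46 tested members (vertical axis, ordered by role) in control and Vegfc-deficient hearts, with standard errors as bars and filled points for an adjusted p under 0.05. In control hearts 30 filled points lie to the right of 0 and 2, Gdf10 and Id1, to the left.

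Of 6 type I receptors, 5 rose in control and 4 in Vegfc-deficient hearts. Tgfbr1 (chromosome 4, 47353222 to 47414931), the TGF-beta type I receptor, was at 25.9 and 25.0, 34.8, 23.2 and 29.1, 107, 157 and 163, and 100.7, 136 and 125 CPM. The lowest MI library was M35 and the highest naive library M149, and they did not overlap. Its log2 fold changes were 2.48 (standard error 0.24, adjusted p = 0.000153) and 2.06 (standard error 0.21, adjusted p = 5.69e-05). Acvr1b (chromosome 15), the activin type I receptor, was at 7.31 and 6.80, 10.7, 7.50 and 7.41, 17.8, 16.7 and 21.5, and 20.6, 21.1 and 24.7 CPM, a rise of 2.64-fold (adjusted p = 0.000628) and 2.60-fold (adjusted p = 0.000176). Acvr1 (chromosome 2, 58388644 to 58567157), a BMP type I receptor, was at 21.9 and 20.5, 17.9, 18.3 and 18.0, 47.5, 37.0 and 50.0, and 51.9, 59.9 and 50.9 CPM. Both genes separated MI from naive libraries, and Acvr1 rose by a log2 fold change of 1.08 in control (adjusted p = 0.000481) and 1.59 in Vegfc-deficient hearts (adjusted p = 3.59e-05). Acvrl1, an endothelial type I receptor, rose by log2 fold changes of 0.49 (adjusted p = 0.0331) and 0.71 (adjusted p = 0.00239), and Bmpr1a by 0.59 in control hearts (adjusted p = 0.0173) with 0.38 in Vegfc-deficient hearts (adjusted p = 0.0564). Of 4 type II receptors only Tgfbr2 passed, by 0.91 (adjusted p = 0.00107) and 1.16 (adjusted p = 9.97e-05). Bmpr2, Acvr2a and Acvr2b passed in neither genotype, with log2 fold changes of 0.0011 to 0.57. The co-receptors Tgfbr3 and Eng passed in neither genotype (-0.71 to -0.053). Per length of joined exons, mean FPKM of Tgfbr1 went from 3.89 in naive control to 21.8 in MI control and that of Tgfbr2, its type II partner, from 15.2 to 28.6.

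Both activin-binding antagonists that were tested rose in both genotypes, as did Fstl1. Fst (chromosome 13, 114452290 to 114458951), follistatin, which binds activin, was at 1.78 and 2.17, 2.06, 1.82 and 2.60, 15.2, 5.85 and 26.9, and 13.6, 18.4 and 9.28 CPM. The MI libraries spread widely, and the lowest, M38, still lay above all naive libraries. The log2 fold change was 3.01 in control (standard error 0.61, adjusted p = 0.0027), 2.40 without M40, and 2.65 in Vegfc-deficient hearts (standard error 0.51, adjusted p = 0.00153). Fstl3 (chromosome 10, 79777272 to 79782630), another activin-binding protein, was at 0.357 and 0.453, 0.294, 0.968 and 0.488, 2.69, 4.56 and 8.29, and 3.23, 5.28 and 6.502 CPM. Its naive values rest on 3 to 8 counts a library, and it passed the filter only through the MI libraries, which favoured a rise. Of its exon bases, 1157 overlap Prss57 on the other strand, which stayed at or under 1.03 CPM. Fstl3 rose by log2 fold changes of 3.66 (standard error 0.67, adjusted p = 0.00163) and 3.13 (standard error 0.55, adjusted p = 0.000869). Fstl1 (chromosome 16, 37776873 to 37836514), a secreted follistatin-like glycoprotein known in the epicardium and in fibroblasts, was the most abundant member after MI per length, at a mean of 798 FPKM of joined exons in MI control. It was at 452 and 443, 413, 565 and 483, 4261, 2752 and 4749, and 3396, 4633 and 4064 CPM. It rose 8.76-fold in control (adjusted p = 2.0e-04) and 8.28-fold in Vegfc-deficient hearts (adjusted p = 4.56e-05), and no naive library came near an MI library. Nog, noggin, was at 3, 3, 7, 6 and 15 counts in naive libraries and at 0 or 1 count in each MI library, which the filter left untested. Grem1, gremlin, was at 0 to 5 counts in every library.

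Of the 4 receptor-activated Smads, 2 rose in control and 3 in Vegfc-deficient hearts. Smad1 rose in both genotypes (log2 fold changes 0.70, adjusted p = 0.0106, and 0.95, adjusted p = 0.000811) and so did Smad3 (0.41, adjusted p = 0.0255, and 0.95, adjusted p = 0.000139). Smad2 passed in Vegfc-deficient hearts (0.33, adjusted p = 0.0448) and not in control hearts (-0.013, adjusted p = 0.945). Smad5 and the common Smad4 passed in neither, and Smad4 was at 42.3 to 52.1 CPM over all 11 libraries. The inhibitory Smads, which are themselves induced by the pathway, rose in both genotypes. Smad6 (chromosome 9, 63953076 to 64022059), which mainly restrains BMP signals, was at 8.92 and 6.43, 6.47, 5.69 and 7.41, 13.4, 11.2 and 25.9, and 11.9, 12.7 and 21.3 CPM. M40 and M913 stood above the other MI libraries, all of which lay above the naive libraries. It rose 2.19-fold in control (standard error of the log2 fold change 0.39, adjusted p = 0.0337) and 2.34-fold in Vegfc-deficient hearts (0.35, adjusted p = 0.0118). The control call was lost without M40 (log2 fold change 0.68, adjusted p = 0.108), M44 (adjusted p = 0.0748) or M45 (0.199), and the Vegfc-deficient call without M913 (adjusted p = 0.0549). Smad7 rose by 0.81 (adjusted p = 0.0337) and 0.64 (adjusted p = 0.0449). Skil (chromosome 3, 31095058 to 31122577), a nuclear repressor of Smad complexes, was at 22.3 and 18.1, 20.6, 18.0 and 22.1, 71.7, 72.2 and 74.6, and 54.9, 78.5 and 65.4 CPM. MI and naive libraries did not overlap, and it rose 3.60-fold (adjusted p = 0.000143) and 3.27-fold (adjusted p = 3.97e-05). Its relative Ski rose 1.79-fold (adjusted p = 0.000558) and 2.35-fold (adjusted p = 3.9e-05).

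The Id genes, BMP-Smad target genes that code for inhibitors of bHLH transcription factors, went in both directions. Id1 (chromosome 2, 152736251 to 152737410) was at 238 and 192, 205, 162 and 249, 98.9, 67.3 and 63.1, and 49.2, 35.9 and 81.4 CPM. All 6 MI libraries lay below all 5 naive libraries. It fell by 1.49 on the log2 scale in control hearts (standard error 0.33, adjusted p = 0.00407) and fell by 1.89 in Vegfc-deficient hearts (standard error 0.31, adjusted p = 0.00056), and was the only member called lower in both. Id2 was at 78.9 and 71.8, 96.2, 55.8 and 57.9, 183, 157 and 148.9, and 117, 136 and 141 CPM, with all MI libraries above all naive libraries. Its log2 fold changes were 1.11 (standard error 0.23, adjusted p = 0.00337) and 0.91 (standard error 0.20, adjusted p = 0.00362). Id3 was at 263 and 226, 229, 184 and 317, 433, 363 and 455, and 249.6, 317 and 425 CPM. In control hearts it rose by a log2 fold change of 0.77 (standard error 0.28, adjusted p = 0.0392), and in Vegfc-deficient hearts, where naive M34 lay above MI M35, the change was 0.44 (standard error 0.24, adjusted p = 0.142). Tgfbi (chromosome 13, 56609523 to 56639562), a matrix protein named for its induction by TGF-beta, was at 90.3 and 86.5, 86.9, 105 and 79.3, 166, 321 and 279, and 172, 315 and 248 CPM. M006 and M35 were the lowest MI libraries and still lay above the naive libraries, and it rose 2.89-fold (adjusted p = 0.00299) and 2.71-fold (adjusted p = 0.00136).

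**Figure D4:**
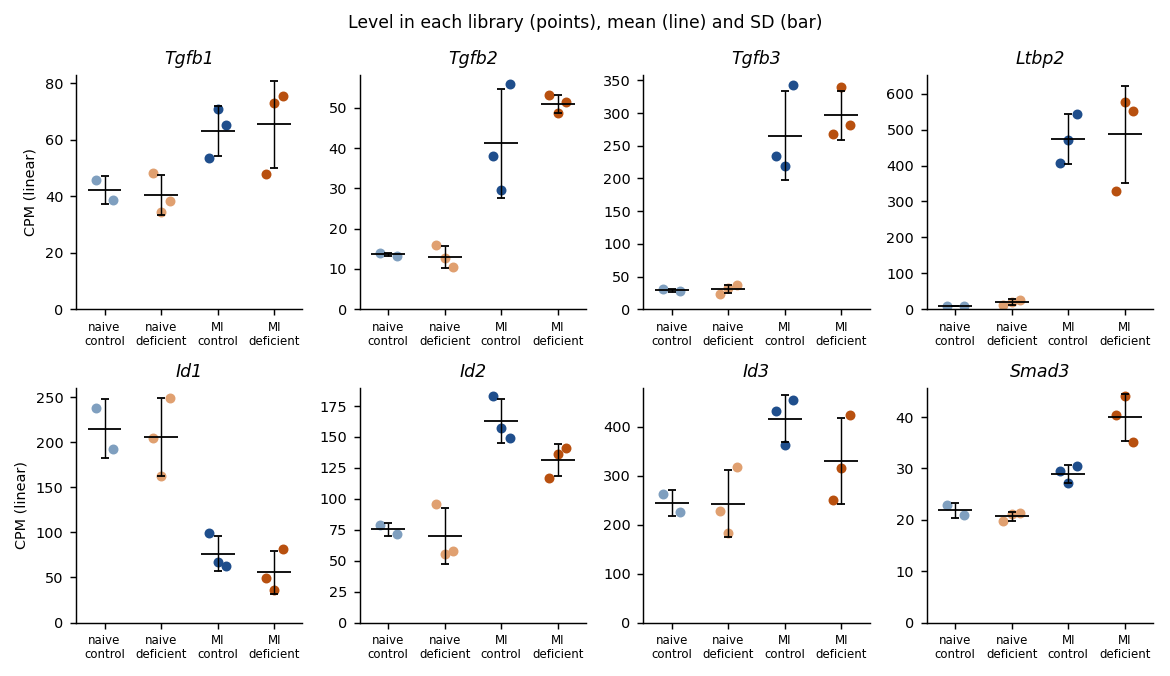
Level in CPM (vertical axis, linear from 0) of 8 members in each library (points) of the 4 groups, with the mean as a line and the SD as a bar. Tgfb2, Tgfb3, Ltbp2 and Id2 lie higher and Id1 lower in every MI library than in every naive library, and the 3 MI Vegfc-deficient points of Smad3 lie above the 3 MI control points.

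Promoter sequence was available from RefSeq (GRCm38.p6) for 35 of the 48 members. It was searched over the 250 bases before the annotated start for CAGAC, the short core that Smad3 and Smad4 bind, on both strands (CAGAC or GTCTG), and for GGCGCC, a palindrome bound by Smads of the BMP branch, which does not overlap with the first. CAGAC occurred in 17 of the 35 (48.6%), against 42.2% of all 32851 promoters of the same length, and GGCGCC in 7 (20.0%), against 9.59%. Members were searched at their first listed start alone, whereas the 32851 promoters are all listed entries, so the shares are not like for like. These are descriptions of letters in a short window, and a match is not a binding site. CAGAC occurred 2 times in 6 members, Tgfb2, Ltbp2, Fstl3, Tgfbi, Eng and Id3, where 11.7% of all promoters held at least 2. The upstream sequences of the first 4 are shown because these genes rose in both genotypes, with both motifs in capitals and bases inside annotated exons of protein-coding genes left out. The intervals are chr1:186705990-186706239 (minus strand) for Tgfb2, chr12:84876533-84876741 (minus strand) for Ltbp2, chr10:79777024-79777271 (plus strand) for Fstl3 and chr13:56609336-56609522 (plus strand) for Tgfbi, which also holds 1 GGCGCC.
Tgfb2: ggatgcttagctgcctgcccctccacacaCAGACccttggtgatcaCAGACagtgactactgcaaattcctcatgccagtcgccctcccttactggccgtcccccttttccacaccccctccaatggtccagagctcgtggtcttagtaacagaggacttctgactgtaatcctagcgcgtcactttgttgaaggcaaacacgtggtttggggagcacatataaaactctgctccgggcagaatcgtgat
Ltbp2: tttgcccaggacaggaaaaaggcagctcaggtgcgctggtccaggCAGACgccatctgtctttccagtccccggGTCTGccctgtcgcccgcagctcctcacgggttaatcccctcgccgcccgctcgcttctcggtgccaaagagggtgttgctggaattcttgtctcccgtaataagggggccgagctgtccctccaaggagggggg
Fstl3: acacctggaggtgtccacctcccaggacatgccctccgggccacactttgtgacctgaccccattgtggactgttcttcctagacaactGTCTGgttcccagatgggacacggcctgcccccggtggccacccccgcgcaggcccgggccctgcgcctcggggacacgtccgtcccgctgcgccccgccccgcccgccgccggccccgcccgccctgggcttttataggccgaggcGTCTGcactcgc
Tgfbi: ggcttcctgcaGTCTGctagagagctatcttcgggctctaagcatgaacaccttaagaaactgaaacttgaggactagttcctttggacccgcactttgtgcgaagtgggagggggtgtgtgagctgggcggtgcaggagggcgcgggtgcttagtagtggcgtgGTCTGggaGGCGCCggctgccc

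A list of 85 other genes of the pathway, of which 62 passed the filter was tested in the same fit. In control hearts 36 were higher and 7 lower, and in Vegfc-deficient hearts 40 were higher and 6 lower, against the same shares of all genes as given for the members. Their median log2 fold changes were 0.94 and 1.08. Of 13 tested target genes, 11 rose in control and 12 in Vegfc-deficient hearts, against 26.3% and 30.0% of all genes. In both genotypes 0 fell, against 24.1% and 27.7%. Comp, a cartilage matrix protein made by matrix-forming fibroblasts, was at 2.45 to 11.4 CPM in naive and 192 to 542 CPM in MI libraries, with log2 fold changes of 6.62 (standard error 0.50) and 5.94 (standard error 0.40). Lox, the collagen-crosslinking lysyl oxidase, went from 8.29 to 40.9 CPM in naive libraries to 401 to 841 CPM, and Postn, periostin, from 142 to 514 CPM to 6711 to 10307 CPM. Col1a1, the main collagen of scar, was at 73.8 to 157 CPM in naive and 2027 to 5047 CPM in MI libraries. Bmp3 was at 0 to 0.178 CPM in naive libraries, at or under the floor of 3 counts, and at 0.406 to 3.71 CPM in MI libraries, through which alone it passed the filter, so that it had to differ. The strongest falls were those of Hjv, hemojuvelin, a BMP co-receptor of striated muscle and liver (398 to 568 CPM in naive and 8.81 to 60.9 CPM in MI libraries, log2 fold changes -3.73 and -3.68), Itgb6, an integrin subunit that activates latent TGF-beta (10.6 to 23.8 and 0.550 to 3.23 CPM, -3.38 and -3.10), and Dand5, an antagonist of nodal (19.1 to 28.8 and 5.58 to 9.64 CPM, -1.42 and -1.997). The other genes named here passed the test in both genotypes, and naive and MI libraries overlapped in none of them. Col1a1 and Postn are also among the fibroblast markers above, so the list and the markers are not independent.

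The second comparison asked whether loss of Vegfc in myeloid cells changed these genes in the infarcted heart. After MI, 0 of 46 members passed the threshold between the genotypes in edgeR's quasi-likelihood test (0.0% of all genes did). By the DESeq2 Wald test 0 members passed, while 50 of 14412 genes (0.347%) did, and by limma-voom 0 members and 0.0% of all genes. At an unadjusted p under 0.05, 1 member passed, against 7.94% of all genes. Log2 fold changes of the members ran from -0.46 to 0.46, with a median size of 0.16 and a median standard error of 0.21. In 4 members (Acvr1, Smad2, Smad3 and Ski) the 3 Vegfc-deficient values were all higher than the 3 control values, and in 1 (Id2) all lower, against 5.99% and 6.12% of all genes. Tissue content varied widely within both groups. The ventricular cardiomyocyte markers summed to 10748, 14522 and 2619 CPM in MI control M006, M38 and M40. In MI Vegfc-deficient M35, M900 and M913 they summed to 26076, 5797 and 11498 CPM. The part of these markers in the genotype comparison was not tested.

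Smad3 (chromosome 9, 63646767 to 63757994), the TGF-beta receptor-activated Smad linked to fibroblast activation, had the smallest p of the members. It was at 29.4, 27.1 and 30.5 CPM in MI control M006, M38 and M40 and at 40.5, 44.2 and 35.2 CPM in MI Vegfc-deficient M35, M900 and M913. The groups did not overlap, and the means were 29.0 ± 1.75 CPM (SD, n = 3) and 39.9 ± 4.52 CPM (SD, n = 3). Its log2 fold change was 0.46 (standard error 0.12, unadjusted p = 0.0023 by edgeR's quasi-likelihood test, adjusted p = 0.584). Over 20 alternatives the adjusted p ran from 0.0684, by the DESeq2 Wald test, to 0.826, and the log2 fold change from 0.41 to 0.55. In naive hearts Smad3 was at 22.8 and 20.8 CPM in control and 19.7, 21.1 and 21.3 CPM in Vegfc-deficient libraries, with groups that overlapped (log2 fold change -0.077, standard error 0.13). Acvr1 was at 47.5, 37.0 and 50.0 CPM in MI control and 51.9, 59.9 and 50.9 CPM in MI Vegfc-deficient libraries (log2 fold change 0.27, standard error 0.13, adjusted p = 0.638). Ski was at 107, 99.0 and 117 CPM against 124, 128 and 121 CPM (log2 fold change 0.21, standard error 0.11, adjusted p = 0.657). Neither passed the threshold, though the libraries did not overlap. The Id genes did not pass either. Their log2 fold changes were -0.46 for Id1 (standard error 0.30), -0.31 for Id2 (standard error 0.20) and -0.34 for Id3 (standard error 0.24), with adjusted p from 0.717 to 0.758 by the same test. Tgfb1, Tgfb2 and Tgfb3 had log2 fold changes of 0.050, 0.31 and 0.16, with standard errors of 0.20 to 0.22.

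**Figure D5:**
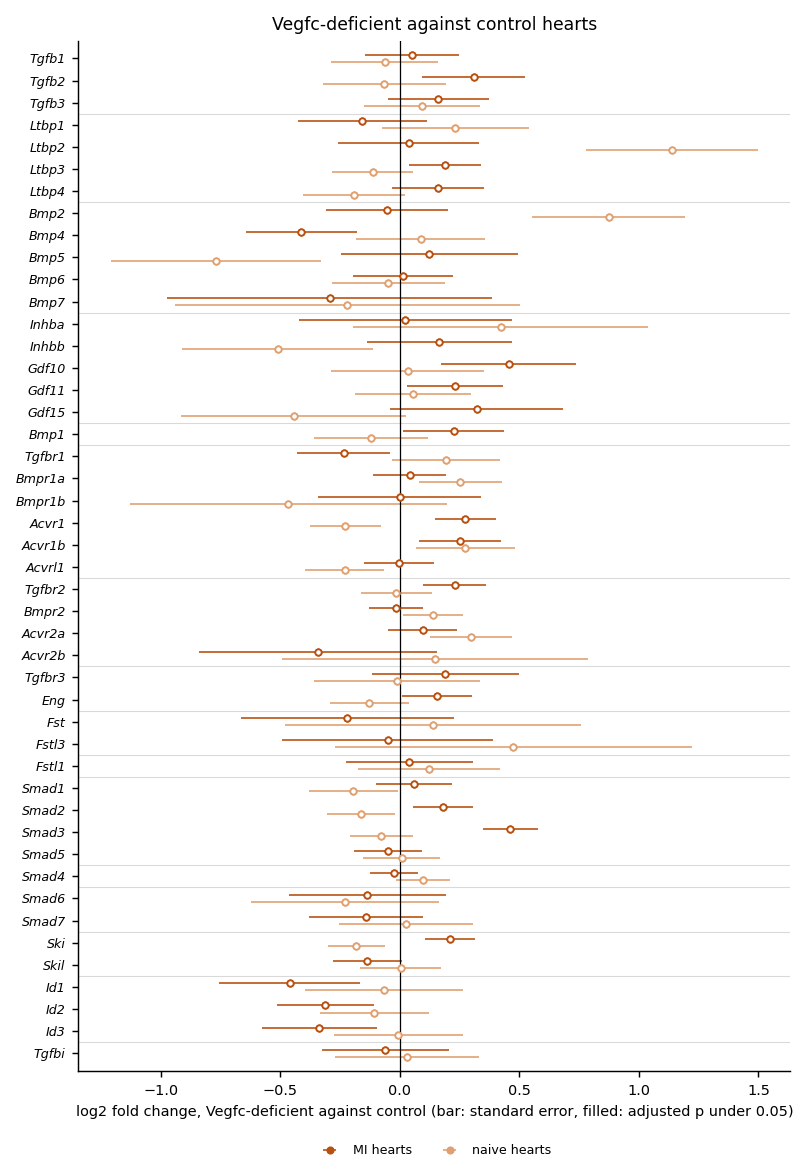
Log2 fold change of Vegfc-deficient against control hearts (horizontal axis) for the 46 tested members (vertical axis, ordered by role) after MI and in naive hearts, with standard errors as bars. All points are open because 0 members passed an adjusted p of 0.05 in either comparison; Smad3 lies farthest to the right among the MI points, at 0.46, and Ltbp2 among the naive points.

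In naive hearts, too, 0 of 46 members differed between the genotypes by edgeR's quasi-likelihood test (0.0% of all genes). By the DESeq2 Wald test 0 members did, against 14 of 15144 genes (0.0924%), and by limma-voom 0 members, against 6 of 14779 genes (0.0406%). At an unadjusted p under 0.05, 2 members passed, against 3.38% of all genes. The libraries stood apart in 5 members that were higher and 4 that were lower in Vegfc-deficient hearts, against 12.3% and 10.1% of all genes. Ltbp2 was at 9.01 and 8.97 CPM in control and 11.6, 20.7 and 27.1 CPM in M149, M150 and M34, the lowest value being that of the library whose Lyz2 goes against its label. M149 also had the highest macrophage marker sum of the naive libraries, 2029 CPM against 1341 to 1564 CPM in the others. The part of this in its Lyz2 level was not tested. The 8 fibroblast markers summed to 5601 and 5945 CPM in control and to 4828, 6612 and 6730 CPM in M149, M150 and M34. Postn was at 189 and 142 against 205, 395 and 514 CPM. Col1a1 was at 92.8 and 85.1 against 73.8, 148.5 and 157 CPM, and Col1a2 at 328 and 302 against 295, 426 and 432 CPM. Col3a1 was at 892 and 875 against 744, 1218 and 1079 CPM, and Lum at 535 and 432 against 363, 592 and 542 CPM. Pdgfra was at 98.1 and 101 against 77.9, 94.5 and 96.6 CPM, all lower. Dcn was at 3412 and 3952 against 3026, 3703 and 3853 CPM, and Tcf21 at 53.4 and 54.9 against 42.0, 36.4 and 56.4 CPM. The part of these markers in the difference in Ltbp2 was not tested. Ltbp2 was 2.20-fold higher (standard error of the log2 fold change 0.36, unadjusted p = 0.0095 by edgeR, adjusted p = 1.0). With M149 and M35 left out the log2 fold change was 1.41 with an adjusted p of 0.0433, where 0.318% of the genes tested were called, and over 20 alternatives the adjusted p ran from there to 1.0. Bmp2 was at 1.43 and 2.90 against 3.43, 4.24 and 4.23 CPM (log2 fold change 0.87, standard error 0.32, adjusted p = 1.0), which was 1.47 without M45 and 0.45 without M44. Acvr2a, a type II receptor, was at 12.0 and 13.8 against 14.0, 16.8 and 16.6 CPM (log2 fold change 0.30, standard error 0.17, adjusted p = 1.0), and 446 of its exon bases overlap Orc4 on the other strand, which reached 53.0 CPM.

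The response to MI was compared between the genotypes by an interaction term. In edgeR's quasi-likelihood test it passed the threshold for 0 of 46 members (0.0% of all genes). The DESeq2 Wald test gave an adjusted p for 27 of the tested members and called 0 of them, against 54 of 6011 genes (0.898%). Smad3 was not among those given one. By limma-voom 0 members and 0.0% of all genes were called. At an unadjusted p under 0.05 there were 5 members (Ltbp2, Bmp2, Acvr1, Smad3 and Ski), against 8.3% of all genes. Smad3 rose by 0.54 more on the log2 scale in Vegfc-deficient than in control hearts (standard error 0.18, unadjusted p = 0.0114, adjusted p = 0.543). The differences for Acvr1 and Ski were 0.50 (standard error 0.20, adjusted p = 0.558) and 0.39 (standard error 0.16, adjusted p = 0.565). For Ltbp2 and Bmp2 they were -1.10 (standard error 0.46) and -0.93 (standard error 0.41), both of which share the naive values given above. Both MI comparisons and both genotype comparisons draw on the same 4 groups, so these values are not independent of each other.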

How the data were processed

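RNA was measured in the left ventricle of 11 mice. The authors trimmed reads with cutadapt 1.13, aligned them with STAR to mm10 and counted them per Ensembl gene with HTSeq 0.6.1p1, by the submitters' processing notes, which also name DESeq2 1.14.1. The deposited values are raw counts for 25006 genes a library, without normalization. Total counts were 10824989 to 26782728 a library, and replicate pairs differed by 7.99 to 171 times counting noise, so none was counted as a duplicate. Each library was taken as 1 mouse, as the study describes its groups.

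Gene names, positions and lengths came from GENCODE M21 (GRCm38), which matched 24991 of 25006 gene IDs. Genes were filtered by edgeR's filterByExpr, scaled by TMM and tested by edgeR's quasi-likelihood test (edgeR 4.0.16, R 4.3.3) in 1 fit of all 11 libraries with 4 group means, since the naive control group has 2. P-values were adjusted by Benjamini-Hochberg over 14779 genes. FPKM are TMM-scaled CPM per kilobase of joined exons or of the longest transcript. The script was tested on simulated counts.

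The 48 genes and the other lists were chosen with earlier results of these data known. Per-library values are given for members called in both genotypes with a log2 fold change of 1 or more in size in both, for the 3 TGF-beta ligands, and for the 3 members of smallest p in each genotype comparison and in the interaction. Bmp4, Id2, Id3 and Gdf10 were added after their values were seen. Of the other pathway genes, the 3 largest rises and falls in each genotype are named. Alternatives were other scalings, DESeq2 1.42.0, limma-voom 3.58.1, other filters and thresholds, the groups alone and each library left out.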

Additional observations from a re-analysis of the deposited data

Results flagged for a closer look

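Acvr1 and Ski had lower values in Vegfc-deficient than in control libraries in naive hearts and higher values after MI, without overlap in either. Libraries stood apart in the same direction in 10.1% of all genes in naive hearts and in 5.99% after MI. The share of genes that did so in both was not counted. Acvr1 was at 21.9 and 20.5 CPM in naive control and 17.9, 18.3 and 18.0 CPM in naive Vegfc-deficient libraries, and at 47.5, 37.0 and 50.0 CPM against 51.9, 59.9 and 50.9 CPM after MI. The difference of its genotype effects was 0.50 on the log2 scale (standard error 0.20, unadjusted p = 0.0278 by edgeR's quasi-likelihood test, adjusted p = 0.558). Ski was at 63.8 and 56.6 CPM against 52.4, 54.1 and 52.7 CPM in naive hearts and at 107, 99.0 and 117 CPM against 124, 128 and 121 CPM after MI, a difference of 0.39 (standard error 0.16, unadjusted p = 0.0331, adjusted p = 0.565). Neither difference passed the adjustment over all genes. Over 19 alternatives the adjusted p ran from 0.318 to 0.997 for Acvr1 and from 0.216 to 0.997 for Ski.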

How the results depend on the processing

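The number of members that changed with MI ran from 22 to 37 in control hearts (32 in the fit reported) and from 22 to 40 in Vegfc-deficient hearts (30 reported) over 11 alternatives that change the scaling, test, filter, threshold or samples, and from 22 to 35 and from 26 to 32 with each library left out in turn. With a naive control library left out, the lone library left is assumed to vary like the other groups. The count of members that differed by genotype was 0 in MI hearts under all alternatives run, and 0 in naive hearts under all but the fit without M149 and M35, chosen after seeing the data, which called 1 member (Ltbp2, higher) and 47 of 14761 genes. The interaction term called 0 members under all alternatives run. Among all genes, the DESeq2 Wald test called 54 of 6011 and the fit without M149 and M35 called 10 of 14761. The fits without M38, M40 or M149 each called 1 gene. Of the log2 fold changes of named members under alternatives, 957 kept their direction and their side of the threshold, 9 crossed it to a call and 11 lost one, and none changed direction. The crossings were those of Tgfb1, Gdf15, Smad6 and Ltbp2, and those not given above were that Tgfb1 was called in control hearts by library totals alone (log2 fold change 1.02), limma-voom (0.55), a mean CPM filter of 1 (0.59), the groups alone (0.58) and the fit without M149 and M35 (0.58), and Smad6 was not with the groups alone (adjusted p = 0.0684). No paired analysis was possible because the labels number each mouse separately and no number is shared between groups. Depth limits Bmpr1b, Acvr2b, Fstl3, Nog and Grem1 most, with naive counts of 15 or fewer a library.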
